A study of Mus musculus with 5 samples.

Results

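The segment of mouse chromosome 17 from 75 to 90 Mb (mm10) held 2143 of the 195585 regions that were called as bound by GFP-tagged macroH2A1.2 in 4 samples, or 1.1%. A region was a member when its midpoint lay between these bounds, and 383, 559, 578 and 623 members came from replicates 1 and 2 of pre-adipocytes and replicates 1 and 2 of mature adipocytes. Inside the segment, the stretch from 81.35 to 82.68 Mb, called the inner block here, held 260 members and the flanks held the other 1883. The segment and its inner block were chosen because ChIP density differed there between mature adipocytes and pre-adipocytes in these same samples. Differences between the conditions in the segment are therefore given as descriptions. A test over all chromosomes was run, and its calls in the segment are described with no p-value of their own.

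The 3T3-L1 line consists of mouse fibroblasts that can be turned into fat cells in culture. All cells carried a macroH2A1.2-GFP transgene, delivered by lentivirus and stably expressed, so that the GFP tag and not the endogenous protein was immunoprecipitated (anti-GFP antibody ab290) from chromatin digested with micrococcal nuclease. Pre-adipocytes (2 samples) were taken before differentiation and mature adipocytes (2 samples) after it, which was started with IBMX, dexamethasone and insulin and carried on with insulin. A single library made without antibody served as control for all 4. The conditions rest on the sample titles, since the description fields of the samples titled as differentiated read as undifferentiated, and the methods of the study mention adipose tissue where the labels name the cell line. Gene expression is not in these files, so the state of the cells could not be checked against markers.

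MacroH2A is a histone variant that replaces the core histone H2A in a fraction of nucleosomes and carries a large globular macro domain outside the nucleosome core. It is known to spread over broad domains of chromatin rather than to sit at single sites, and it is found over the inactive X chromosome and over many silent genes. The macroH2A1.1 and macroH2A1.2 proteins are splice forms of the same gene, and the 1.2 form does not bind ADP-ribose.

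4 transcript starts frame the inner block and show how its sequence context varied. Each is given as 250 bases before to 50 bases after the start, on the strand of the gene, from RefSeq (GRCm38.p6, the assembly of mm10), with CG dinucleotides in capitals. Slc8a1 (chr17:81738338-81738637, minus strand), which encodes a plasma membrane sodium-calcium exchanger, is the only well-known coding gene of the block. The lncRNAs Gm33944 (chr17:81289672-81289971, plus strand) and Gm41629 (chr17:82871586-82871885, plus strand) lie to its left and right. The Gm33944 window is at a transcript start inside the gene body (chr17:81284955-81317615). Pkdcc (chr17:83215033-83215332, plus strand), which encodes a secreted protein kinase, is the first coding gene to its right.

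Slc8a1: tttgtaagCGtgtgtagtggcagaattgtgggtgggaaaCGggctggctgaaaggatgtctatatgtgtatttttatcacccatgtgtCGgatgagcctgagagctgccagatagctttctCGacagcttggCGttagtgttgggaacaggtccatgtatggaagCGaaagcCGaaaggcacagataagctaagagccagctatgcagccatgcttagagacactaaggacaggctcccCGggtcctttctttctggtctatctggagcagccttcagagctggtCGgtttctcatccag
Gm33944: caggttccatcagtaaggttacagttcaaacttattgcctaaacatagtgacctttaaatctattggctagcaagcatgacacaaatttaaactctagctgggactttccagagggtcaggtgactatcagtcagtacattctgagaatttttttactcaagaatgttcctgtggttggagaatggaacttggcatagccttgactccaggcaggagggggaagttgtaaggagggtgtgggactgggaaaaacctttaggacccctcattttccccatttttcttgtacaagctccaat
Gm41629: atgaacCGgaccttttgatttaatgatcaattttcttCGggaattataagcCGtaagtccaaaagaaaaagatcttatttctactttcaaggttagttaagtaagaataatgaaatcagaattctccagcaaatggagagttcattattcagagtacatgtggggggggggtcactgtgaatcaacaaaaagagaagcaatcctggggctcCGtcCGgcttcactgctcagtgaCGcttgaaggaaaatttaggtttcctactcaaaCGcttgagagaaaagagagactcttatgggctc
Pkdcc: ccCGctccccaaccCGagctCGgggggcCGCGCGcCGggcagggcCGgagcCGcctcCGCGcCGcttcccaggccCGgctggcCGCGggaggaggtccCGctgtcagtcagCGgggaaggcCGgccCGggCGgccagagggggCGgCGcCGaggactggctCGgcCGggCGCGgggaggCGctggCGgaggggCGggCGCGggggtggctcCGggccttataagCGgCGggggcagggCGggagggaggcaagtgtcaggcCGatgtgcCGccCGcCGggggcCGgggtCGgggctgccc

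The number of CG dinucleotides was 9 for Slc8a1, 0 for Gm33944, 7 for Gm41629 and 42 for Pkdcc, against a median of 7 over 32851 RefSeq promoters of the same length. The GC content of the same windows was 50.7%, 43.0%, 40.3% and 82.7%, against a median of 52.7%. Called regions covered the whole Slc8a1 promoter in replicate 1 of pre-adipocytes and in both mature adipocyte samples, and none of it in replicate 2 of pre-adipocytes. The Gm41629 promoter was covered in full in both mature adipocyte samples and in neither pre-adipocyte sample. The CG-rich Pkdcc promoter lay outside the regions of all 4 samples, and so did the Gm33944 window. The latter lay inside the gene body and, in mature adipocytes, in a short break between called regions. Most of the Gm33944 gene was covered in those samples. Of the letters searched on both strands, AGGTCA, the core of nuclear receptor sites, was in the Gm33944 window only and is in 16.3% of all promoters, while AGATAA, a form of the GATA motif, was in the Slc8a1 window only and is in 11.2%. Over the whole segment, 183 RefSeq promoters had a median of 7 CG dinucleotides, and 49, 31, 48 and 52 of them were touched by a region in the 4 samples in the order above (26.8%, 16.9%, 26.2% and 28.4%). Over the 32619 promoters of the chromosomes with regions the shares were 10.1%, 4.34%, 10.0% and 9.51%. In the segment 10 were touched in both mature adipocyte samples and in neither pre-adipocyte sample, against 1.57% of all promoters, and 2 the other way round, against 0.426%. Nothing is read from these counts, which come from the contrast that chose the segment. The 10 belonged to lncRNA or predicted genes, namely Gm41626, Gm41629, Gm41631 with 3 starts, Gm52292, Gm35551, Gm4832, 4933400B14Rik and Gm4719.

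The depth of the libraries was uneven. Taken from the scaling of the deposited fold enrichment, the ChIP libraries were 1.2, 0.549, 1.23 and 1.21 times the size of the control library in replicates 1 and 2 of pre-adipocytes and replicates 1 and 2 of mature adipocytes, so that replicate 2 of pre-adipocytes was the shallow one. A caller of broad regions tends to find shorter or broken-up regions in a shallow library, and reads outside called regions are not in these files. A stretch outside the regions is therefore not shown to lack macroH2A1.2, and replicate 1 of pre-adipocytes, of like depth to the mature adipocyte samples, is the closer comparison for widths and covered shares. How much of each difference comes from depth was not tested.

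Regions of the inner block were wide in every sample. Their median width was 10800 bp in replicate 1 of pre-adipocytes, against 6800 bp in the flanks. It was 4700 bp against 3000 bp in replicate 2 of pre-adipocytes, 9200 bp against 4600 bp in replicate 1 of mature adipocytes and 10600 bp against 4000 bp in replicate 2. The block thus exceeded the flanks 1.59-fold and 1.57-fold in pre-adipocytes and 2.0-fold and 2.65-fold in mature adipocytes, and in all 4 samples its median lay above that of all chromosomes in the same sample, which was 5800, 3000, 3600 and 3400 bp. Between the conditions, the median width in the block was not separated. Both mature adipocyte values lay between those of the pre-adipocyte replicates, and the mean of mature over the mean of pre-adipocytes was 1.28, or 0.917 when the shallow replicate 2 of pre-adipocytes was left out. Regions over 30 kb made up 14.6%, 1.14%, 18.6% and 13.8% of the block's regions in the 4 samples, and 1.53%, 0.0104%, 0.559% and 0.446% of the regions of all chromosomes. The widest of the block spanned 65400 bp (chr17:82015001-82080400) and 30600 bp (chr17:82025201-82055800) in pre-adipocytes, and 74000 bp (chr17:81884801-81958800) and 75200 bp (chr17:82012001-82087200) in mature adipocytes. In the flanks the widest were 74000 bp (chr17:79715601-79789600), 26000 bp (chr17:79729201-79755200), 53000 bp (chr17:80733001-80786000) and 48400 bp (chr17:79253001-79301400), so the flanks also held broad domains, and these 4 lay between 79 and 81 Mb.

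A larger share of the inner block lay within regions after differentiation. Regions covered 57.49% and 40.84% of its bases in pre-adipocytes and 72.87% and 71.62% in mature adipocytes, against 23.93%, 13.8%, 26.44% and 25.01% of the flanks. Pre-adipocytes averaged 49.2% ± 11.8 (SD, n = 2). Mature adipocytes averaged 72.2% ± 0.884 (SD, n = 2), and the conditions did not overlap. Against the deeper pre-adipocyte replicate alone, the difference was 14.8 points. In the flanks the difference of the means was 6.86 points, within the spread of the pre-adipocyte replicates, and it was 1.8 points against the deeper replicate.

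**Figure D1:**
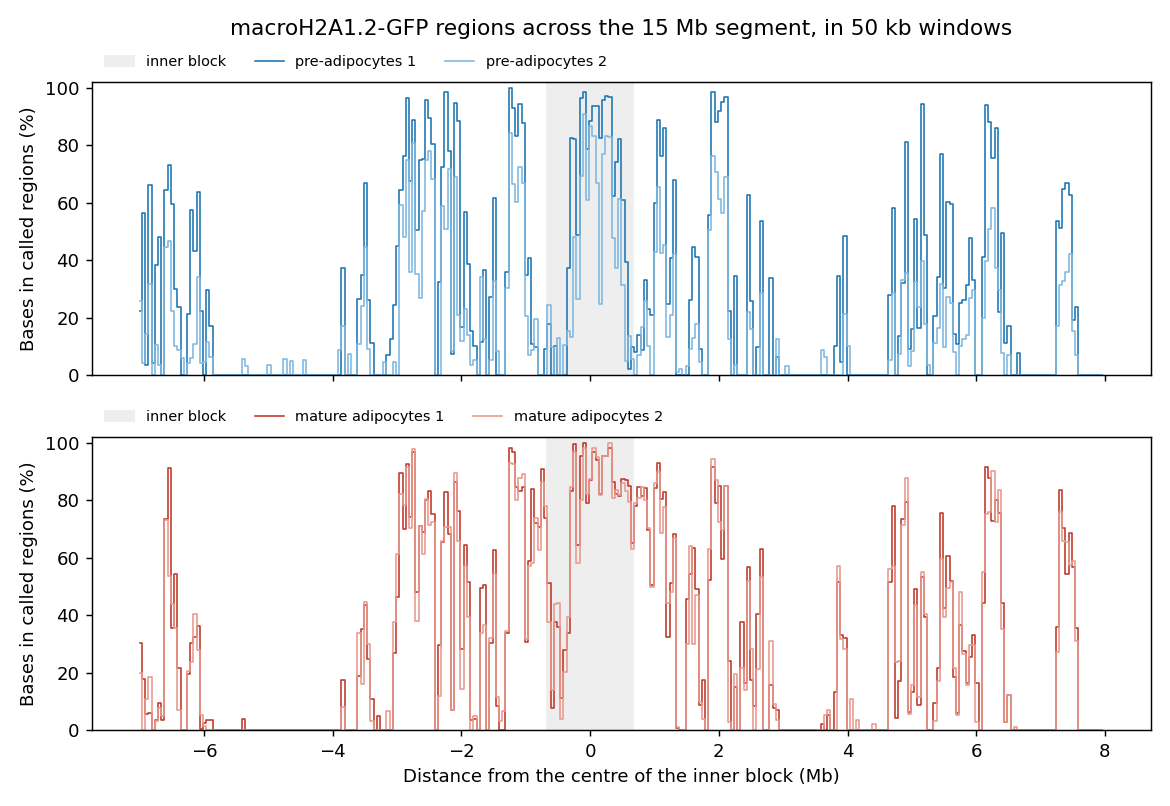
Share of bases inside called regions in 50 kb windows across the segment, against the distance from the centre of the inner block (shaded), for 2 pre-adipocyte samples (above) and 2 mature adipocyte samples (below). Clusters of covered windows recur at the same places in all samples, and in mature adipocytes the cluster over the block extends beyond its edges on both sides.

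The 50 kb windows with the largest differences lay mostly at the edges of the block and outside it. A window is called gained here when the lower of the mature adipocyte values exceeded the higher of the pre-adipocyte values by at least 40 percentage points, a limit chosen after the values had been seen. Of the 300 windows of the segment 14 were gained (4.67%), against 0.453% of the 51162 windows of all chromosomes. In the other direction no window of the segment differed by this much, against 0.00195% of all windows. That direction needs the lower pre-adipocyte value to be the higher one, and the shallow replicate 2 covered least. Its mean over all windows was 5.43%, against 10.9% in replicate 1, so little can be read from this count. Against replicate 1 alone such windows existed, as at 75150001 to 75200000 with 66.0%, against 6.0% and 18.4% in mature adipocytes. Their number was not counted. With 30 points the count was 16 and with 50 points it was 9. Of the 26 windows wholly inside the inner block only 2 were gained. The difference in the block's own covered share thus also came from windows below this limit. The gained windows formed a run of 5 from 81100001 to 81350000, which ends where the block begins, a run of 8 from 82550001 to 82950000, which starts inside the block and ends beyond it, and a single window at 88350001 to 88400000 at the end of the lncRNA Gm31615. The run of 8, 400 kb long, was the longest on any chromosome at this limit, followed by runs of 350 kb on chromosomes 11 and 16, but longer runs were found elsewhere with the limits of 30 and 50 points.

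The block and its surroundings fell into 5 stretches with unlike values. In the left gained stretch, regions covered 5.92% and 5.68% of the bases in pre-adipocytes and 78.3% and 71.9% in mature adipocytes. Over the body of Slc8a1 (chr17:81373105-81738377), which follows, the shares were 14.6%, 8.9%, 32.1% and 32.0%. The centre, from the start of Slc8a1 to 82550000, was covered for 83.4% and 60.2% in pre-adipocytes and 89.3% and 87.9% in mature adipocytes. It was thus the main part of the domain before differentiation and differed least from replicate 1 of pre-adipocytes. In the right gained stretch the shares were 17.2%, 10.4%, 79.5% and 77.7%. From 82950001 to the start of Pkdcc they were 63.0%, 37.4%, 74.3% and 73.1%, so the right gained stretch joined the centre to a domain that was already called in pre-adipocytes. Because the gained stretches were picked for this difference, their shares describe where it lies and do not support it.

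**Figure D2:**
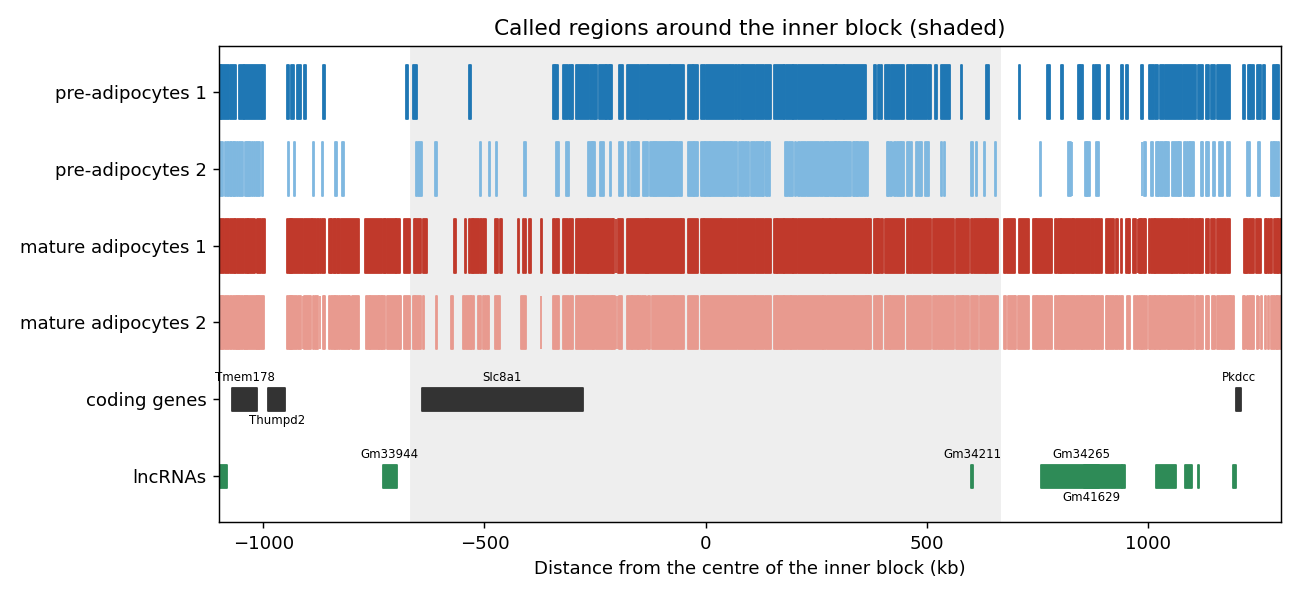
Called regions (coloured bars, 1 row per sample) and the bodies of coding genes and RefSeq lncRNAs around the inner block (shaded), against the distance from its centre in kb. The 2 mature adipocyte rows are nearly filled from the start of Slc8a1 to Pkdcc and left of Slc8a1. The pre-adipocyte rows are broadly filled in the centre, but hold mostly scattered short regions between Thumpd2 and Slc8a1 and in the right gained stretch. Nearer to Pkdcc their regions are denser again. Most of the body of Slc8a1 stays sparser than the centre in all 4 rows, but its part next to the start is densely filled in all rows except replicate 2 of pre-adipocytes.

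ChIP reads per kb of region were scaled to the size of each library relative to the control. In the inner block they came to 35.72 and 42.07 in pre-adipocytes and 42.91 and 43.5 in mature adipocytes, and in the flanks to 31.65, 38.56, 34.54 and 34.89. The log2 ratio of the condition means in the block, mature adipocytes over pre-adipocytes, was 0.152 with this scaling. It was -0.437 with scaling by the summed ChIP reads of each sample's regions, so no direction is given for the level itself. Those sums were 9876187, 2833105, 11592708 and 11202845 over all chromosomes, lowest in the shallow replicate 2 of pre-adipocytes, where the fewest bases were called. With the sums as scale, both mature adipocyte values lay above replicate 1 of pre-adipocytes and below replicate 2. The ratio of block to flanks within a sample needs no scaling. It was 1.13 and 1.09 in pre-adipocytes and 1.24 and 1.25 in mature adipocytes, higher in both mature adipocyte samples. Only called intervals enter these values, and in the shallow replicate 2 of pre-adipocytes the called intervals were the shorter and richer ones, as its values in the flanks show.

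Control reads were also denser in the inner block. They numbered 23.64, 23.93, 23.24 and 23.14 per kb of the block's regions, and 19.47, 19.85, 19.52 and 19.43 per kb of the flanks' regions. The ratio was 1.21, 1.21, 1.19 and 1.19, and over all chromosomes the control density in regions was between 18.53 and 19.35 per kb. The control library took no part in the contrast between conditions and is the same in all 4 samples, so the 4 values differ only by which bases were called. The excess of the block over the flanks was thus smaller in ChIP reads than in control reads in pre-adipocytes and larger in ChIP reads in mature adipocytes. By median fold enrichment over the control, the block's regions were at 1.476, 1.778, 1.777 and 1.826. Those of the flanks were at 1.607, 2.012, 1.804 and 1.821. By this measure the block was lower in pre-adipocytes and near the flanks in mature adipocytes. Across the 5 stretches, the control density was highest in the centre, at 24.0, 24.3, 23.9 and 24.0 per kb, while between 82950001 and Pkdcc it was 17.9, 18.0, 17.6 and 17.6, the lowest of the 5 in all samples but replicate 1 of pre-adipocytes. In the left gained stretch it was 17.4, 19.3, 20.2 and 20.2 and in the right one 19.8, 21.1, 20.5 and 20.3, near the values of the flanks. A source of the higher control density, such as copy number or the ease of mapping, was not tested.

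**Figure D3:**
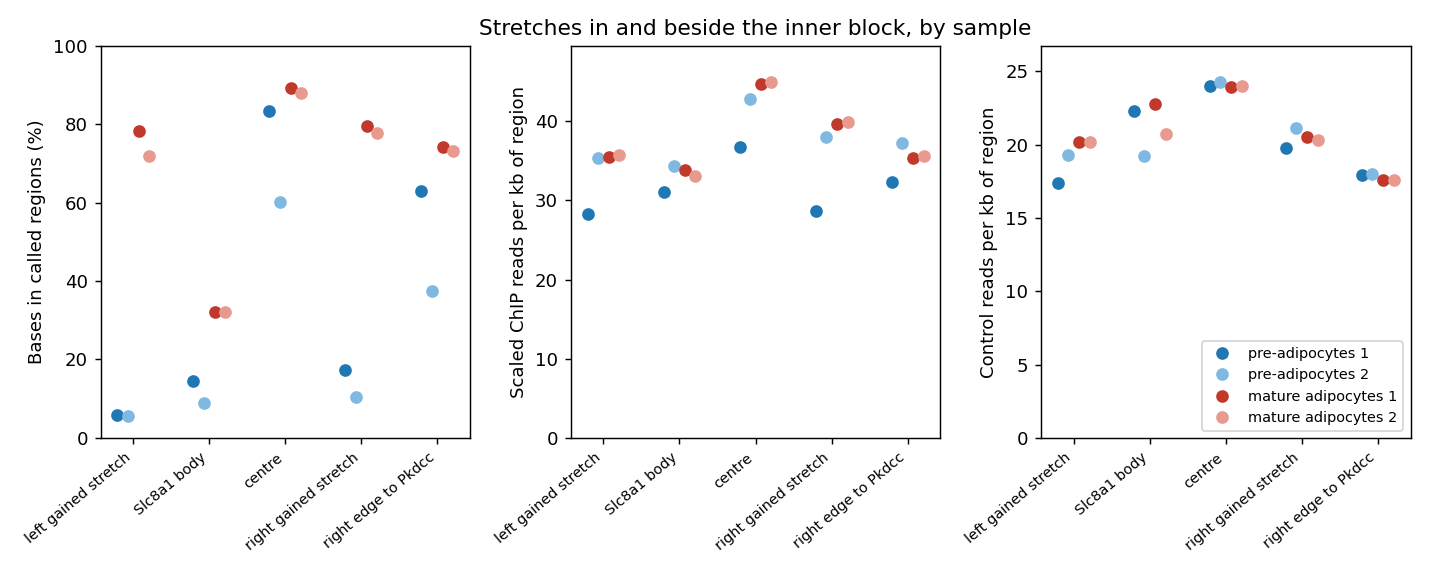
Share of bases in called regions (left), scaled ChIP reads per kb of region (middle) and control reads per kb of region (right) in 5 stretches from left to right along the chromosome, 1 point per sample. The covered share separates the conditions by more than 50 points in the gained stretches, while the control density peaks at about 24 reads per kb in the centre.

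Some intervals were called with identical bounds in several samples, which removes the effect of the interval from the comparison. The region chr17:82224001-82279800 (55800 bp) was called in replicate 1 of pre-adipocytes and in both mature adipocyte samples over 1308 control reads. It held 2970 ChIP reads in that pre-adipocyte sample and 3471 and 3334 in the mature adipocyte samples, for fold enrichments over the control of 1.89, 2.16 and 2.11. The region chr17:82470801-82481600 (10800 bp) was shared by the same samples, with 355, 544 and 555 ChIP reads over 205 control reads and enrichments of 1.44, 2.16 and 2.24. At chr17:82128201-82148200 (20000 bp), replicate 1 of pre-adipocytes had 952 reads and replicate 1 of mature adipocytes had 1204, for enrichments of 1.67 and 2.07. With scaling by the summed ChIP reads of each sample's regions instead, the ratio of mature adipocytes to replicate 1 of pre-adipocytes was 0.996 and 0.99 in the first interval, 1.31 and 1.38 in the second and 1.08 in the third. The second was thus higher in mature adipocytes with both scalings, and the first was higher with the deposited scaling only. Outside the block, the region chr17:83146801-83153000 had an enrichment of 1.6 in replicate 1 of mature adipocytes against 2.12 in replicate 1 of pre-adipocytes, and was lower with the other scaling too (ratio 0.657). At chr17:79218801-79220000 the enrichment was 2.24 against 1.9, and at chr17:79209401-79212200 it was 1.72 and 1.95 against 1.58. With the other scaling the ratio was 1.02 in the former, and 0.944 and 1.09 in the latter, where the mature adipocyte replicates fell on either side of replicate 1 of pre-adipocytes. Between the mature adipocyte replicates, the enrichments of the 6 identical intervals of the segment differed by -0.0329 to 0.179 on the log2 scale.

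Regions of all samples that overlapped were merged, and those called in all 4 samples were compared between conditions with edgeR over all chromosomes, with the summed length of each sample's own intervals as an offset. The segment held 453 merged regions, of which 164 (36.2%) were called in all 4 samples, and the block held 43, of which 20 (46.5%) were. Over all chromosomes the share was 20.4% (12857 of 62927). Of the 12857 tested, edgeR called 6 higher in mature adipocytes (0.0467%) and 1 lower (0.00778%) at an adjusted p under 0.05, and 1150 had an unadjusted p under 0.05. The inner block held 5 of the 6 and the flanks none. The 5 calls in the segment fell to 3 with DESeq2, to 1 with regions at an FDR of at most 1e-05, to 2 without replicate 1 of mature adipocytes and to 1 without replicate 2, and rose to 9 and 15 without replicates 1 and 2 of pre-adipocytes, so the number of calls depends on the samples and settings. Since the block was chosen from this contrast, these calls describe it. All 5 lay between Slc8a1 and Pkdcc, in the right part of the block.

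Their ChIP densities, scaled as above, were as follows. The merged region chr17:82281201-82377400 had 34.6 and 40.2 reads per kb in pre-adipocytes and 46.5 and 47.7 in mature adipocytes, a fitted log2 fold change of 0.35. At chr17:82470801-82481600 the values were 27.3, 33.9, 41.0 and 42.6, with a log2 fold change of 0.47. At chr17:82484001-82524000 they were 30.7, 33.0, 46.5 and 47.9, with 0.55. With this scaling, both mature adipocyte samples were above both pre-adipocyte samples in these 3 regions by more than the replicates of a condition differed. In the third, 21400 bp were called in replicate 2 of pre-adipocytes against 40000 bp in each mature adipocyte sample. Scaling by summed ChIP reads, which reversed the order of the condition means for the block as a whole, was not applied to all 4 samples here. At chr17:82530201-82576400 the values were 29.5, 39.2, 43.0 and 44.0, with a log2 fold change of 0.40, and at chr17:82615601-82675400 they were 22.8, 40.8, 42.6 and 45.4, with 0.53. For both, much less was called before differentiation, 24400 and 4000 bp against 45600 and 43800 bp in the former and 5800 and 9600 bp against 58000 and 55400 bp in the latter, so the values cover unlike stretches. The first region contains the processed pseudogene AC122453.2, the fourth contains the pseudogene Gm6594, the last contains the lncRNA Gm34211, and no gene was annotated in the other two.

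The log2 fold changes of the block were shifted as a group, which describes the block, since it was chosen from this contrast. Their median was 0.254 over 20 merged regions, 20 of them above 0, against 0.00359 over the 144 of the flanks, 76 of them above 0, and -4.4e-05 over all 12857. Within the block they ran from 6.37e-05, at chr17:81884801-81966800, to 0.552. In ChIP density scaled as above, both mature adipocyte samples exceeded both pre-adipocyte samples in 15 of the 20 regions of the block. They did so in 17 of the 144 of the flanks, against 10.5% of all merged regions tested. The count was not repeated with scaling by summed ChIP reads, which reversed the order of the condition means for the block as a whole. In the 5 others of the block the shallow replicate 2 of pre-adipocytes was at or above the lower mature adipocyte value, as at chr17:81974401-81998800 with 41.7, 46.8, 45.8 and 45.6 reads per kb.

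**Figure D4:**
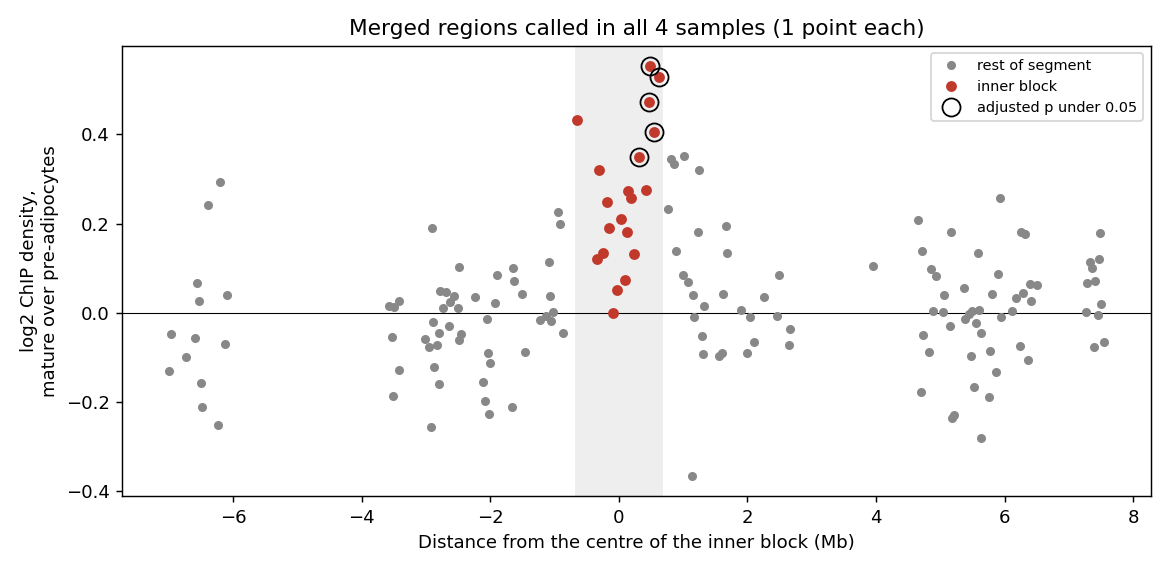
Fitted log2 change in ChIP density from pre-adipocytes to mature adipocytes for the 164 merged regions of the segment that were called in all 4 samples, against the distance from the centre of the inner block (shaded), with circles around those past an adjusted p of 0.05. The 20 points of the block lie at or above 0 and the 144 of the flanks scatter around 0.

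The inner block was poor in genes. It overlapped 2 coding genes, Slc8a1 and the predicted gene Gm11096 inside it, or 1.5 per Mb against 5.85 per Mb in the flanks, and 1 RefSeq lncRNA, Gm34211, or 0.752 per Mb against 6.66. Between the start of Slc8a1 and Pkdcc lay 1477 kb without a coding gene, the second longest such gap of the segment. On the other side, 308 kb separated Slc8a1 from Thumpd2. Over the Thumpd2 body no region was called in any sample, and the same was true of Pkdcc.

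A gap between coding genes was not in itself covered. The longest of the segment, 2648 kb from Fam98a to Crim1, had regions over 6.52%, 3.02%, 4.27% and 3.22% of its bases in the 4 samples, and the gap from Slc8a1 to Pkdcc over 61.8%, 42.6%, 83.9% and 82.4%. The next, 708 kb from the follicle-stimulating hormone receptor gene Fshr to Gm10184, was at 24.2%, 12.8%, 28.7% and 27.0%. Shorter gaps reached high values before differentiation as well, such as 91.5%, 71.2%, 89.4% and 87.9% between the kinase gene Map4k3 and Tmem178. Between Haao and Zfp36l2 the order was reversed against the deeper pre-adipocyte sample, with 81.6%, 59.0%, 70.7% and 70.7%. Of the 10 gaps of at least 200 kb, only those on either side of Slc8a1 had both mature adipocyte values more than 20 points above both pre-adipocyte values.

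**Figure D5:**
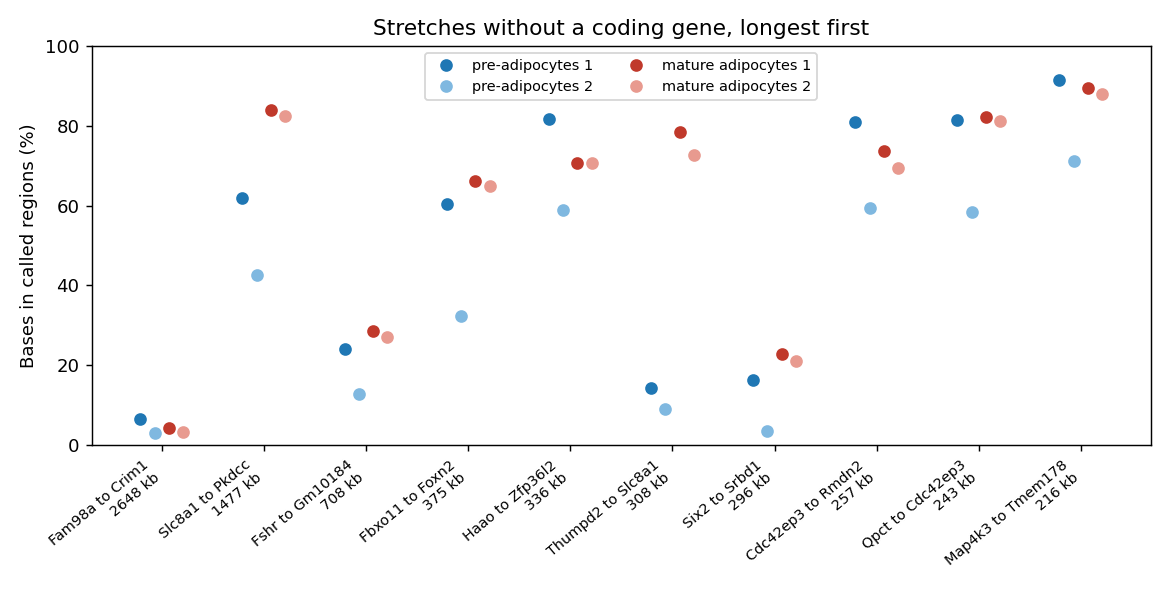
Share of bases in called regions in the 10 stretches of at least 200 kb without a coding gene in the segment, longest first, 1 point per sample. The longest gap is below 7% in all samples, and the gaps on either side of Slc8a1 are the ones where mature adipocytes stand well above pre-adipocytes.

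Among the lncRNAs beside the block, Gm33944 (chr17:81284955-81317615) was covered for 0% of its body in both pre-adipocyte samples and for 85.9% and 87.1% in mature adipocytes. Gm34265 (chr17:82773502-82956495), 183 kb long, was covered for 22.7% and 14.4% before and 78.8% and 79.3% after differentiation. Gm41629, inside it, was at 31.4%, 52.0%, 85.6% and 80.6%. These 3 genes lie in the gained stretches, so their values restate the same difference. Gm34211 (chr17:82616224-82620486), in the block, was at 0%, 74.5%, 100% and 100%. The pre-adipocyte replicates thus lay far apart, and replicate 2 was nearer to mature adipocytes than to replicate 1. Further right, Gm19689 was covered in all samples (85.7%, 65.5%, 98.2% and 88.8%), and Gm4601 showed no order by condition (49.8%, 0%, 13.8% and 43.8%). The functions of these lncRNAs are not known from the annotation. Of the 92 lncRNAs of the segment, 63 had a region over the body in at least 1 sample and 37 in all 4 (40.2%, against 17.2% of all lncRNAs). The covered share was higher in both mature adipocyte samples than in both pre-adipocyte samples in 19 and lower in 2, against 10.9% and 2.48% of the 12697 lncRNAs of all chromosomes. These counts come from the contrast that chose the segment, and overlapping lncRNAs share regions.

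Coding genes followed the same layout. Of 82 in the segment, 48 had a region over the body in at least 1 sample (58.5%, against 30.1% of all coding genes) and 18 in all 4 (22.0%, against 9.99%). The covered share was higher in both mature adipocyte samples in 13 and lower in 2, against 8.27% and 1.53% of the 21755 coding genes of all chromosomes. At transcription start sites, 18 of the 82 genes had a region in at least 1 sample, against 11.3% of all coding genes, and 2 had one in all 4, namely Abcg8 and Tmem247, against 0.616%.

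The gene lists below are described by role, and no difference between lists was tested. Over all coding genes of the segment the share higher in both mature adipocyte samples was 15.9%. Among the list members counted as higher, the conditions were close in Kcng3, Kcnk12, Abcg5, Prkd3 and Thada. In these the gap between the conditions was smaller than the difference between the pre-adipocyte replicates. Of the 6 receptors, channels and transporters, 3 had regions, in all 4 samples and all higher in both mature adipocyte samples. Slc8a1 was described above. Kcng3, a modifier subunit of potassium channels, had 35.3% and 5.22% of its body covered in pre-adipocytes and 54.0% and 39.7% in mature adipocytes. Kcnk12, also a potassium channel gene, had 24.1%, 9.58%, 35.3% and 46.0%. No region was called over the gonadotropin receptor genes Lhcgr and Fshr or the amino acid transporter gene Slc3a1 in any sample.

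In the list for sterol, steroid and mitochondrial metabolism, 5 of 8 genes had a region, 2 in all 4 samples, and 2 were higher in mature adipocytes. Abcg5 and Abcg8 encode the partners of the sterol exporter of liver and gut. Their bodies overlap and were broadly covered in every sample, Abcg5 at 58.2%, 33.9%, 82.2% and 73.5% and Abcg8 at 72.0%, 39.5%, 67.8% and 60.3%. Cyp1b1, a cytochrome P450 that oxidises steroids and xenobiotics, was at 1.95%, 0%, 16.7% and 23.7%. Only Abcg5 and Cyp1b1 were higher in both mature adipocyte samples, whereas Abcg8 lay between the pre-adipocyte values. Haao, of tryptophan breakdown, Lrpprc, of mitochondrial mRNA, and the phosphatase gene Ppm1b were free of regions.

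In the list for Ras and kinase signalling, 9 of 10 genes had a region and 5 had it in all 4 samples. These counts include Ltbp1, Vit and Crim1, which do not encode Ras regulators or kinases. Rasgrp3, an exchange factor for Ras proteins, was broadly covered in no order by condition, at 83.5%, 42.9%, 82.3% and 66.1%. The protein kinase D gene Prkd3 (22.1%, 3.08%, 26.9% and 37.2%) and the kinase-like gene Cdkl4 (18.5%, 15.2%, 25.2% and 24.4%) were higher in both mature adipocyte samples. Ltbp1, which binds latent TGF-beta in the matrix, was lower, at 30%, 10.4%, 9.3% and 8.06%, a difference smaller than that between the pre-adipocyte replicates. The large genes Sos1, Map4k3 and Prkce had no region except in replicate 2 of mature adipocytes, where 5.31%, 4.52% and 0.571% were covered.

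In the list for transcription, RNA and chromatin, 7 of 11 genes had a region but only Thada had one in all 4 samples (6.23%, 0.652%, 13.0% and 10.0%). Mta3, a subunit of the NuRD complex, had none in pre-adipocytes and 7.63% and 3.99% in mature adipocytes. Fbxo11, a subunit of a ubiquitin ligase, had none and then 15.6% and 6.37%. These 3 were the members that were higher in both mature adipocyte samples. The homeobox gene Six3 had 28.0% in the shallow replicate 2 of pre-adipocytes alone, and Epas1, a hypoxia-inducible transcription factor, had 4.27%, 0%, 2.26% and 15.8%.

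Regions recurred between replicates more often in the segment than elsewhere, with the block highest. In the block 77.1%, 87.5%, 94.9% and 95.4% of a sample's regions overlapped a region of the other replicate of its condition, in the flanks 69.6%, 81.5%, 84.6% and 86.6%, and over all chromosomes 56.7%, 72.8%, 73.8% and 73.9%. Wide regions overlap more often by their width alone, and the part of width in this was not tested. The members at the bounds were ordinary ones. The first region inside the block spanned 8800, 2400, 3000 and 2800 bp in the 4 samples with fold enrichments of 1.28, 1.66, 2.17 and 2.35, and the last one before it was at 1.49, 1.54, 1.68 and 1.72. The bound at 82.68 Mb lay inside the right gained stretch, so that it did not mark an end of the difference between conditions.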

How the data were processed

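MacroH2A1.2-GFP was measured by ChIP-seq in 3T3-L1 cells (2 samples per condition, biological duplicates per the study, 1 control library). The authors aligned single reads of 50 bases to mm10 with Bowtie 1.1.2, allowing 2 mismatches and unique hits, removed duplicates with Picard and called regions per sample with SICER 1.1 (versions from the submitters' processing notes). The deposited tables give, per region, raw counts of ChIP and control reads, a p-value, the fold enrichment (a ratio scaled by library size) and an FDR, which the study sets at 1% and which reaches at most 0.001 in the tables. The control counts are the only data of the control library used here.

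Regions step by 200 bp and are printed 1-based. Library size relative to the control was ChIP over control counts divided by the deposited fold. Merged regions were tested with edgeR 4.0.16 (R 4.3.3, quasi-likelihood, TMM, length offset, Benjamini-Hochberg). Library sizes and TMM were taken on counts per interval length, after a first version on raw counts had failed on simulated data. DESeq2 1.42.0 and the settings of the closing section were alternatives. Same-numbered replicates did not deviate together (correlation 0.00775), so they were not paired. Genes came from GENCODE M21, lncRNAs and promoters from RefSeq GRCm38.p6, and other values from Python 3.11.15 with pandas 2.3.3. The segment, its gene lists and all tests were chosen with earlier results of these data known, and the windows, gained stretches and gaps after seeing values. Named were merged regions past the threshold, the widest regions, coding genes and lncRNAs in and beside the block, and list members, some of which are not reported here. Of sequence, only the RefSeq promoter windows were used.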

Additional observations from a re-analysis of the deposited data

How the results depend on the processing

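The covered share of the block kept its direction under every alternative run, and leaving out each replicate in turn gave 14.8 to 31.4 points (flanks 1.8 to 11.9). The width ratio of 1.28 became 4.59 with regions of at least 2-fold enrichment and ran from 0.917 to 2.11 with a replicate left out, reversing without replicate 2 of pre-adipocytes. The log2 ratio of ChIP density in the block, 0.152, became 0.408 with at least 2-fold enrichment and 0.0386 to 0.275 when a replicate was left out. It reversed to -0.437 when scaled by total ChIP reads in regions. With that scaling the mature adipocyte values lay between those of the pre-adipocyte replicates. The control ratio of block to flanks, 1.2, was 1.22 at an FDR of at most 1e-05, 1.17 at 2-fold enrichment and 1.25 against other chromosomes, with 1.2 whichever replicate was left out. The ChIP ratio, 1.18, was 1.11 at 2-fold enrichment, below the control ratio at that setting. It was 1.26 against other chromosomes and 1.15 to 1.21 with a replicate left out. Gained windows numbered 9 with 50 points, an alternative chosen after seeing the data.

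Of the merged regions, 7 were called over all chromosomes and 5 in the segment. The counts were 12 and 6 with DESeq2 size factors, 6 and 3 with DESeq2, whose independent filtering left 643 regions with an adjusted p, 26 and 7 with at least 50 reads in every sample, 10 and 5 with 50% overlap, and 1 and 1 at an FDR of at most 1e-05. With a replicate block they were 27 and 8, although the replicate numbers are not known to pair samples. Without a replicate they ran from 1 to 224 and from 1 to 15. The 224 and 15 came without the shallow replicate 2 of pre-adipocytes, when 12 of the 15 were higher and 3 lower, and without replicate 1 they were 110 and 9. Without replicate 1 of mature adipocytes they were 5 and 2, and without replicate 2 they were 1 and 1. In these fits the lone sample is assumed to vary like the other condition. Except for the alternatives' own construction, the cause of these changes was not tested.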
